A study of Mus musculus with 16 samples.

Results

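Untreated cultures labelled RXRgKO were compared with untreated cultures labelled WT over all genes with enough counts to test. The comparison holds 8 of the study's 16 samples, the 4 titled RXRgKO ctrl and the 4 titled WT ctrl. Its samples were taken by those titles, but the comparison and its gene lists were chosen with earlier results of these data known. All 8 are poly-A RNA libraries from mouse oligodendrocyte precursor cells (OPCs), which were derived from neural stem cells of a C57BL6J/129svEmx mixed background and harvested on day 4 of monolayer culture. The design text gives the WT cells as RXRg+/+ and the RXRgKO cells as RXRg-/-, and neither group had received the thyroid hormone triiodothyronine (T3). The other 8 samples carry the same 2 labels and were given T3 for 24 h. Neither the disrupted part of Rxrg nor the sex of the animals is stated. It is also not stated that the 4 libraries of a label are independent cultures or animals, and every p-value here is set against the spread among these libraries, which may be technical.

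Rxrg encodes the retinoid X receptor gamma, a nuclear receptor that binds DNA as the partner of other nuclear receptors, among them those for thyroid hormone, retinoic acid, fatty acids and oxysterols. In the brain it is known from cells of the oligodendrocyte lineage and from striatal neurons. OPCs divide, leave the cell cycle, pass through a premyelinating stage and become oligodendrocytes, which make the proteins and lipids of myelin.

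Levels are given as CPM, read counts scaled to a common library total with TMM factors and not corrected for gene length, so that a gene is compared only with itself. Each of the 8 libraries held 21237911 to 30673505 counts in genes. WT-labelled replicate 1 stood apart from the other 3 WT-labelled libraries, with a chi-square per gene of 8.2 to 8.49 against 1.57 to 1.60 among the others. The RXRgKO-labelled libraries formed the pairs of replicates 1 and 3 (2.04) and of replicates 2 and 4 (1.61), with 4.94 to 6.73 between the pairs. Xist, the RNA that coats the inactive X chromosome in females, followed the pairs, at 3.22, 543, 3.75 and 631 CPM in RXRgKO-labelled replicates 1 to 4 and 526, 1198, 1219.6 and 1382 CPM in WT-labelled replicates 1 to 4. Ddx3y, a Y-linked gene, stood at 115, 52.9, 118 and 51.2 CPM under the RXRgKO label and 73.3, 13.9, 15.8 and 14.6 CPM under the WT label. RXRgKO-labelled replicates 1 and 3 thus had almost no Xist, and WT-labelled replicates 2 to 4 had the most Xist and the least Ddx3y. The levels of these sex-linked genes ran in part with the label, and the part of sex in the differences below was not tested. Neither gene was called with all 8 libraries. Of the omissions of 1 library, only that of WT-labelled replicate 1 gave a call for Ddx3y, at an adjusted p of 0.00922, where the 3 other Y-linked genes looked at were called higher too. With RXRgKO-labelled replicates 1 and 3 alone, Xist was lower (adjusted p = 0.0290) and the Y-linked gene Uty higher (adjusted p = 0.0456). The share of reads in no annotated gene was 20.9% ± 2.29 (SD, n = 4) under the RXRgKO label and 17.1% ± 0.483 under the WT label, without overlap (two-sided p = 0.0286 by exact permutation, the smallest possible with these group sizes; 0.257 when adjusted over 9 library measures). Because bulk RNA was measured, fewer cells of a type and less RNA per cell cannot be told apart in what follows.

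Rxrg itself went against the labels. Rxrg (ENSMUSG00000015843; GRCm38 chromosome 1, 167598384 to 167639623) stood at 4.83, 3.77, 4.60 and 3.79 CPM in RXRgKO-labelled replicates 1 to 4 and 1.79, 1.48, 1.14 and 1.65 CPM in WT-labelled replicates 1 to 4. The groups did not overlap and the RXRgKO-labelled libraries were the higher ones, with a log2 fold change of 1.48 (SE 0.22, adjusted p = 2.0e-04). The difference lay the same way in the separate T3-treated libraries, at 2.79. Counts per gene do not show where in the gene the reads lie, so this level does not check the labels. Every direction below is between labels; whether the labels were exchanged was not tested, and an exchange would turn every direction. Rxra and Rxrb, the other retinoid X receptor genes, had log2 fold changes of 0.10 and -0.27 and were not called.

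Of 19764 genes tested, 2240 (11.3%) were called at a Benjamini-Hochberg adjusted p under 0.05 by edgeR's quasi-likelihood test, 1220 of them higher (6.17%) and 1020 lower (5.16%) under the RXRgKO label. At least 2-fold changes made up 1360 of the calls (6.88% of genes tested), 812 higher and 548 lower, and 130 were at least 8-fold, 82 higher and 48 lower. The median absolute log2 fold change of the called genes was 1.19, while the median over all genes tested was -0.0008. In 3698 genes (18.7%) the 4 libraries of one label did not overlap with the 4 of the other, among them 2106 of the called genes. With each library left out in turn, 1419 genes were called every time. With the counts of near-alike libraries summed, so that each label had only 2 samples, 141 of 24773 genes (0.569%) were called, and all 141 were among the 2240.

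**Figure D1:**
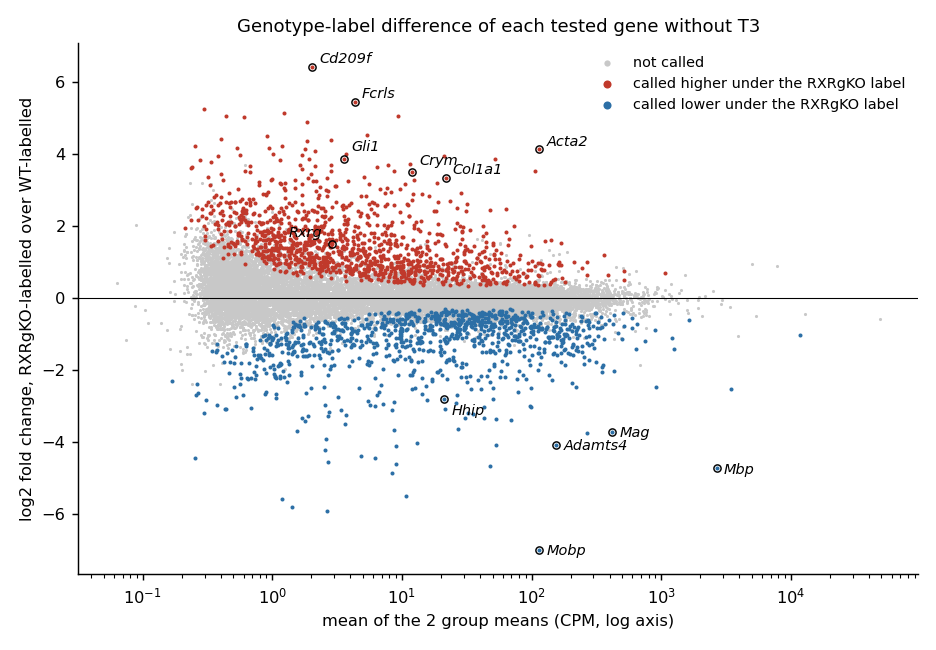
Each point is 1 of the 19764 genes tested, with the mean of both group means in CPM on a log x axis and the log2 fold change of RXRgKO-labelled over WT-labelled untreated libraries on the y axis. Genes called higher are red, genes called lower are blue and the rest grey, and Mbp, Mag and Mobp stand out as low points at high levels.

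Among 35 gene lists of cell types and pathways, that of myelin had the lowest median. Of 31 genes of myelin and mature oligodendrocytes, all tested, 24 were lower, 0 were higher and 7 were not called, with a median log2 fold change of -2.14. The members ran from -7.01 to 1.54, and the member at 1.54 was among those not called. Summed over the list, the level was 2878 to 3446 CPM in the RXRgKO-labelled libraries and 16640 to 23030 CPM in the WT-labelled ones. Each WT-labelled library therefore held several times the myelin RNA of any RXRgKO-labelled one.

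Mbp, which encodes myelin basic protein, stood at 248, 137, 204 and 185 CPM in RXRgKO-labelled replicates 1 to 4 and 6608, 4603, 4630.3 and 4853 CPM in WT-labelled replicates 1 to 4. The lowest WT-labelled library lay far above the highest RXRgKO-labelled one, and the log2 fold change was -4.74 (SE 0.32, adjusted p = 1.0e-07). Mobp, which encodes a protein of the compact myelin sheath, had the largest fall of any gene called, from 155, 252, 248 and 252 CPM in the WT-labelled libraries to 1.85, 1.00, 2.81 and 1.40 CPM in the RXRgKO-labelled ones (log2 fold change -7.01, SE 0.65, adjusted p = 2.2e-06). WT-labelled replicate 1 was the lowest of its group for Mobp and the highest for Mbp.

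Genes for the contacts of the sheath and its axon fell as well. Mag, the myelin-associated glycoprotein that faces the axon, went from 782 ± 102 to 58.9 ± 8.46 CPM (SD, n = 4 each), a log2 fold change of -3.73 with an SE of 0.25 and an adjusted p of 1.0e-07. Cldn11, the claudin of myelin's tight junctions, had 423 to 669.8 CPM in the WT-labelled and 31.0 to 40.2 CPM in the RXRgKO-labelled libraries, at a log2 fold change of -3.76. Gjb1, a connexin gene of oligodendrocytes and Schwann cells, was at 3.13, 5.03, 4.38 and 4.35 CPM under the WT label and at 0.822, 0.539, 1.06 and 0.627 CPM under the RXRgKO label (log2 fold change -2.47, SE 0.28, adjusted p = 1.9e-05). Hapln2, which links hyaluronan at nodes of Ranvier, fell by 4.40 on the log2 scale, and Nfasc, the neurofascin gene of nodes and paranodes, by 2.50. No library of one label reached the other group in any of these 5 genes.

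Ugt8a, which makes the galactolipids of myelin, had a log2 fold change of -2.03 (SE 0.18, adjusted p = 1.4e-06), and Cnp, a phosphodiesterase of uncompacted myelin, -1.43 (SE 0.27, adjusted p = 0.00192). Cnp was at 3149, 1365, 1446 and 1421 CPM in WT-labelled replicates 1 to 4, so replicate 1 alone lies far above the rest, but those 3 also lay above all RXRgKO-labelled libraries (623 to 764 CPM). Adamts4, a protease of mature oligodendrocytes, fell by 4.09 on the log2 scale. Mog, the late surface glycoprotein, was at 1.06, 0.770, 1.49 and 0.687 CPM under the RXRgKO label and 8.82, 2.37, 3.37 and 2.87 CPM under the WT label (-2.14), low in all 8 libraries. Myrf, the transcription factor that turns on myelin genes, had a log2 fold change of -1.36 (SE 0.33, adjusted p = 0.0109), and the call was lost without WT-labelled replicate 1 and without RXRgKO-labelled replicate 1, at an adjusted p of up to 0.0523.

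The fall of the list did not rest on 1 set of libraries. Against all WT-labelled libraries, RXRgKO-labelled replicates 1 and 3 gave a median of -1.90 with 20 members lower, and replicates 2 and 4 gave -2.21 with 21 lower. Without WT-labelled replicate 1 the median was -1.80 with 21 lower, and against that library alone it was -2.59 with 26 lower. With counts summed per set, 12 members were called lower. In each of these fits 0 members were called higher.

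**Figure D2:**
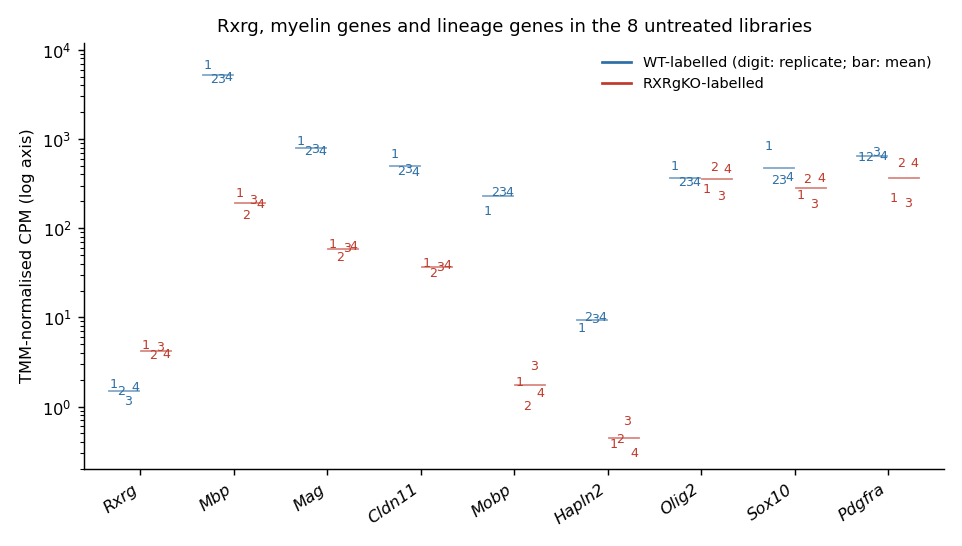
TMM-normalised CPM (log y axis) of Rxrg, 5 myelin genes and 3 lineage genes in each untreated library. Digits are replicate numbers and bars are group means, blue for WT-labelled and red for RXRgKO-labelled libraries; the groups stand apart for Rxrg and the myelin genes and overlap for Olig2 and Sox10.

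Promoters are shown for Mobp, the largest fall, for the pair of lowered myelin genes with a nuclear receptor half-site near a start, and for the second start of Rxrg, which also holds one. The half-site searched was AGGTCA on either strand (TGACCT when read from the other one), the core that retinoid X receptor pairs bind, in the 250 bases before each RefSeq start (GRCm38.p6). Each run is the last 150 bases before a start, 5′ to 3′ on the strand of the gene, with a half-site in capitals. The stretches are chr9:120149592-120149741 (plus strand), chrX:101381968-101382117 (plus), chr1:132642859-132643008 (minus) and chr1:167618115-167618264 (plus), all just outside the first exon of the RefSeq transcript they precede.
Mobp: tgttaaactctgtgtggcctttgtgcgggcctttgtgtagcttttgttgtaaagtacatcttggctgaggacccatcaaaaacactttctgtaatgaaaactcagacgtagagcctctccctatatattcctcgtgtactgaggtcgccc
Gjb1: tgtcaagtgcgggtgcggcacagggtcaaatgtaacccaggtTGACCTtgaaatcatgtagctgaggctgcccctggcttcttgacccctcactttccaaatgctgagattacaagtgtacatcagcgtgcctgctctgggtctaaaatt
Nfasc: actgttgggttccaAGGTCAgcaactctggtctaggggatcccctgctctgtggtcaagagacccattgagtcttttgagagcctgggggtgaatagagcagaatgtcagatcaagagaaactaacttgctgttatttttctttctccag
Rxrg, second start: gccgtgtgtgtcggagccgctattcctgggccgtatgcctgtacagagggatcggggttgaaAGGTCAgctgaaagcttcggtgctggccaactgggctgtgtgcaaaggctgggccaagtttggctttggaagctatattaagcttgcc

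A half-site lay before a start of 115 of 892 genes called higher (12.9%) and of 91 of 629 called lower (14.5%) that have an entry, beside 1678 of 12931 tested genes (13.0%) and 4260 of all 27025 genes with an entry (15.8%). Of the 17 lowered myelin genes with an entry, 2 had one, Gjb1 and Nfasc, each at an alternative start only. The half-site repeated with 1 base between (AGGTCANAGGTCA) was in 0 promoters of the called genes and 6 of those tested. These are matches of letters in a short window and no measure of binding.

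Earlier stages of the lineage differed less. Of 20 genes of committed and premyelinating oligodendrocytes, 19 were tested, with 7 lower, 1 higher and a median of -0.77. Casr, a calcium-sensing receptor, went from 5.17 ± 1.79 to 0.208 ± 0.0917 CPM (log2 fold change -4.57, SE 0.34, adjusted p = 2.3e-07), and Tmem163, a zinc transporter, from 101 ± 50.0 to 5.88 ± 0.781 CPM (log2 fold change -4.10, SE 0.47, adjusted p = 2.0e-05). The adaptor gene Cnksr3 (-2.27), the semaphorin gene Sema4d (-2.21) and the small GTPase gene Rras2 (-1.32) were lower too, each without overlap between labels. Lims2, named after its value was seen as the 1 member that was higher (log2 fold change 0.70, SE 0.21, adjusted p = 0.0408), overlapped between labels, and its call held in only 1 of 8 omissions, that of WT-labelled replicate 1. Against WT-labelled replicate 1 alone the list had 11 members lower, and with it left out 7 were lower and 2 higher.

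OPC markers were close to even. Of 22, all tested, 2 were lower, 0 higher and 20 not called, with a median of -0.14. Pdgfra, the receptor that defines OPCs, was at 216, 529, 188 and 528 CPM under the RXRgKO label and 618, 623, 706 and 636 CPM under the WT label. Its log2 fold change of -0.82 (SE 0.40, adjusted p = 0.251) was not called although the groups did not overlap, and RXRgKO-labelled replicates 1 and 3 were low while 2 and 4 lay nearer the WT-labelled libraries. Cspg4, the gene of the NG2 proteoglycan, had a log2 fold change of -0.53 (SE 0.26, adjusted p = 0.256) and the phosphatase gene Ptprz1 -0.03 (SE 0.20, adjusted p = 0.954), with overlap between labels. The members called lower were Cdo1, a cysteine dioxygenase (log2 fold change -0.70, adjusted p = 0.00568), and Tmem100 (log2 fold change -0.35, adjusted p = 0.0449), whose call held only without RXRgKO-labelled replicate 1 when 1 library was left out.

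Among 22 oligodendrocyte lineage transcription factors, all tested, 1 was higher and 1 lower. Olig1 (-0.18) and Olig2 (-0.04), which set the lineage, were not called, nor was Sox10 (log2 fold change -0.74, adjusted p = 0.223), which keeps it. Hes1, a Notch-responsive repressor, was higher at 12.2 to 18.8 against 4.76 to 8.31 CPM (log2 fold change 1.06, SE 0.17, adjusted p = 4.6e-04). Nkx6-2, a homeobox factor of differentiating oligodendrocytes, was lower (log2 fold change -1.24, SE 0.33, adjusted p = 0.0184), although WT-labelled replicate 1, at 13.0 CPM, lay within the RXRgKO-labelled range, and the call was lost without RXRgKO-labelled replicate 2 or 4 (adjusted p up to 0.0521). Olig1, Olig2 and Sox10 overlapped between labels, and the lowest of their values in the 8 libraries was 184 CPM, of Sox10 in RXRgKO-labelled replicate 3.

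Genes of other cell types made up much of the largest rises. Of the 12 largest rises that the naming rule gives, 8 named here are known from macrophages and microglia, namely Cd209f, Fcrls, Ms4a6d, Lyz2, C1qc, Adgre1, Ms4a7 and the scavenger receptor gene Marco. Cd209f, a lectin, was at 2.67, 5.58, 3.41 and 4.33 CPM under the RXRgKO label and 0.0407, 0.0422, 0.0842 and 0 CPM under the WT label, and Fcrls, a microglial Fc receptor-like gene, at 8.77, 7.78, 9.37 and 7.85 CPM under the RXRgKO label and 0.163, 0.127, 0.337 and 0.131 CPM under the WT label. All RXRgKO-labelled libraries lay above all WT-labelled ones, with log2 fold changes of 6.42 (SE 0.89, adjusted p = 1.2e-04) and 5.44 (SE 0.58, adjusted p = 1.0e-05). The WT-labelled libraries held only 4 reads of Cd209f in all against 448, and 18 of Fcrls against 941, so the sizes of these folds are loosely set. Lyz2, the lysozyme of phagocytes, was at 23.4, 5.32, 38.2 and 5.43 CPM in RXRgKO-labelled replicates 1 to 4 and 0.174 to 0.674 CPM under the WT label (log2 fold change 5.06, SE 1.11, adjusted p = 0.00560), highest in replicates 1 and 3. For the complement gene C1qc the log2 fold change was 4.90, for Ms4a6d 5.15, for the receptor gene Adgre1 4.52, for Ms4a7 4.40 and for Marco 4.13.

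Of 18 microglia and macrophage markers, 17 passed the count filter, 14 of them higher, 0 lower and 3 not called, at a median of 2.48. A gene passes that filter through whichever group it is high in, so this count is a description. Summed, the markers came to 65.6 to 89.4 CPM under the RXRgKO label and 22.5 to 32.7 CPM under the WT label. The defining markers Aif1 (4.49), Cx3cr1 (2.24) and C1qa (3.86) were higher, and Aif1 was at 0 in WT-labelled replicate 4. P2ry12, the purinergic receptor of resting microglia, was at 0.0896 to 0.766 CPM under the RXRgKO label and 0.305 to 0.488 under the WT label and was not called. Tmem119, another gene of resident microglia, was higher (log2 fold change 2.48, SE 0.37, adjusted p = 2.1e-04) at 0.776 to 1.23 against 0.126 to 0.325 CPM, and the protease gene Ctss was too (3.66). Without WT-labelled replicate 1 the list had 13 higher, with only RXRgKO-labelled replicates 1 and 3 it had 13 and with only 2 and 4 it had 9, but 3 when WT-labelled replicate 1 was the only WT library and 2 with counts summed per set. The part of such cells in the other differences was not tested.

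Of 18 mural and mesenchymal markers, 11 were higher and 0 lower, at a median of 2.40 and with summed levels of 501 to 1137 CPM against 161 to 213 CPM. Acta2, the smooth muscle actin gene, was at 86.8, 369, 168 and 241 CPM in RXRgKO-labelled replicates 1 to 4 and 3.21, 13.4, 17.2 and 15.6 CPM in WT-labelled replicates 1 to 4. Each RXRgKO-labelled library lay several times above each WT-labelled one, and replicate 2 was the highest (log2 fold change 4.13, SE 0.47, adjusted p = 2.1e-05). Other genes of the contractile apparatus, Tagln (3.51) and Cnn1 (3.68), and the fibrillar collagen genes Col1a1 (3.33) and Col1a2 (2.91) were higher, as was Vtn, the vitronectin gene of pericytes (log2 fold change 3.36, SE 0.24, adjusted p = 1.6e-07). Ccn5, a secreted matricellular protein of smooth muscle, was among the 12 largest rises, at 2.09 to 4.55 against 0.131 to 0.211 CPM (4.36). Pdgfrb, the receptor that defines pericytes, was not called (-0.13), and Rgs5, a regulator of G proteins in pericytes, had 21.3, 4.85, 18.3 and 6.0 CPM under the RXRgKO label and 25.7 to 27.5 CPM under the WT label (log2 fold change -1.06, adjusted p = 0.0550). Rgs5 was called lower without RXRgKO-labelled replicate 1 or 3, at an adjusted p as low as 0.00882. Without WT-labelled replicate 1 the list again had 11 higher, and with counts summed per set it had 4. The acute-phase gene Saa3 was also among the 12 largest rises (4.08), and its call held in only 3 of 8 omissions.

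Endothelial markers had 6 of 13 tested members higher (of 16 on the list), 0 lower and a median of 0.93, at 51.6 to 93.1 CPM summed against 27.4 to 43.3 CPM. Kdr, the main receptor for vascular endothelial growth factor, was at 15.5 to 44.9 against 4.31 to 6.91 CPM (log2 fold change 2.42, SE 0.31, adjusted p = 4.9e-05). The endoglin gene Eng (2.39), the transporter gene Slco1a4 (2.17) and Cdh5, the cadherin that defines endothelium (2.42), were higher as well, with Cdh5 at no more than 1.47 CPM in any library. Pecam1, an adhesion gene that also defines endothelium, overlapped between labels at 1.88, 0.616, 1.53 and 0.657 CPM under the RXRgKO label and 0.447, 0.887, 0.632 and 0.696 CPM under the WT label and was not called (0.81, adjusted p = 0.330), and Cldn5, of endothelial tight junctions, had too few counts to test. Under the RXRgKO label Pecam1 and Cdh5 were lowest in replicates 2 and 4, where the endothelial sum was highest (93.1 and 85.7 CPM). For ependymal and motile cilia markers, 11 of 19 tested members were higher (of 20), 0 lower and the median was 1.40, at 238.5 to 269.5 CPM summed against 145 to 163 CPM. Foxj1, the master regulator of motile cilia, was at 46.5, 39.6, 55.5 and 33.4 CPM under the RXRgKO label and 13.1, 13.7, 14.1 and 15.9 CPM under the WT label (log2 fold change 1.62, SE 0.18, adjusted p = 2.0e-05). The axonemal genes Dnah9 (1.38), Cfap44 (1.82), Cfap126 (2.42) and Fam183b (3.11) were higher without overlap, while Tmem212, a defining marker, was at 0 in 1 library of each label. With counts summed per set, 1 endothelial and 3 ependymal markers were called.

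Astrocyte markers were near even, with 2 of 22 lower, 0 higher and a median of -0.09. Their summed level was 5849 to 9838 CPM under the RXRgKO label and 6289 to 14112 CPM under the WT label, highest in WT-labelled replicate 1. Gfap, the astrocyte filament gene, was at 2215, 521, 2207 and 563 CPM under the RXRgKO label and 4728, 819, 835 and 1001 CPM under the WT label, high in WT-labelled replicate 1 and in RXRgKO-labelled replicates 1 and 3, and was not called (-0.42). The water channel gene Aqp4 was not called either (-0.06). The glypican gene Gpc5 (log2 fold change -1.58, SE 0.22, adjusted p = 1.4e-04) and Glul, glutamine synthetase (log2 fold change -0.74, SE 0.20, adjusted p = 0.0188), were lower, Glul in only 4 of 8 omissions. Neuron markers had 4 of 24 higher, 1 lower and a median of 0.39, at 2474 to 2962 CPM summed against 1918 to 2461 CPM. Gad1 and Gad2, the enzymes of GABA synthesis, were at 47.2, 55.7, 43.7 and 59.8 and at 50.1, 41.4, 47.9 and 42.2 CPM in the RXRgKO-labelled libraries. In the WT-labelled libraries they were at 9.07, 29.7, 29.8 and 27.2 and at 4.67, 21.2, 22.1 and 22.5 CPM, with replicate 1 far below the rest (1.11 and 1.37). The interneuron factor gene Sp9 was higher (0.98; 4 of 8 omissions), Elavl3, an RNA-binding protein gene of neurons, was lower (log2 fold change -1.59, SE 0.33, adjusted p = 0.00332), and Dcx, of migrating neurons, was not called (0.20). Without RXRgKO-labelled replicate 1, 2 or 4 the higher neuron markers came to 2, 2 and 1, and without WT-labelled replicate 1 there were 4 higher and 3 lower. Against WT-labelled replicate 1 alone 12 neuron markers were higher and 1 lower, with either RXRgKO-labelled pair alone 1 was higher, and with counts summed per set 0 were. Schwann cell and neural crest markers had 1 of 14 tested members higher and 3 lower, which were the melanocyte enzyme gene Dct (-4.63), the receptor gene Erbb3 (-1.98) and the pigment factor gene Mitf (-1.72).

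**Figure D3:**
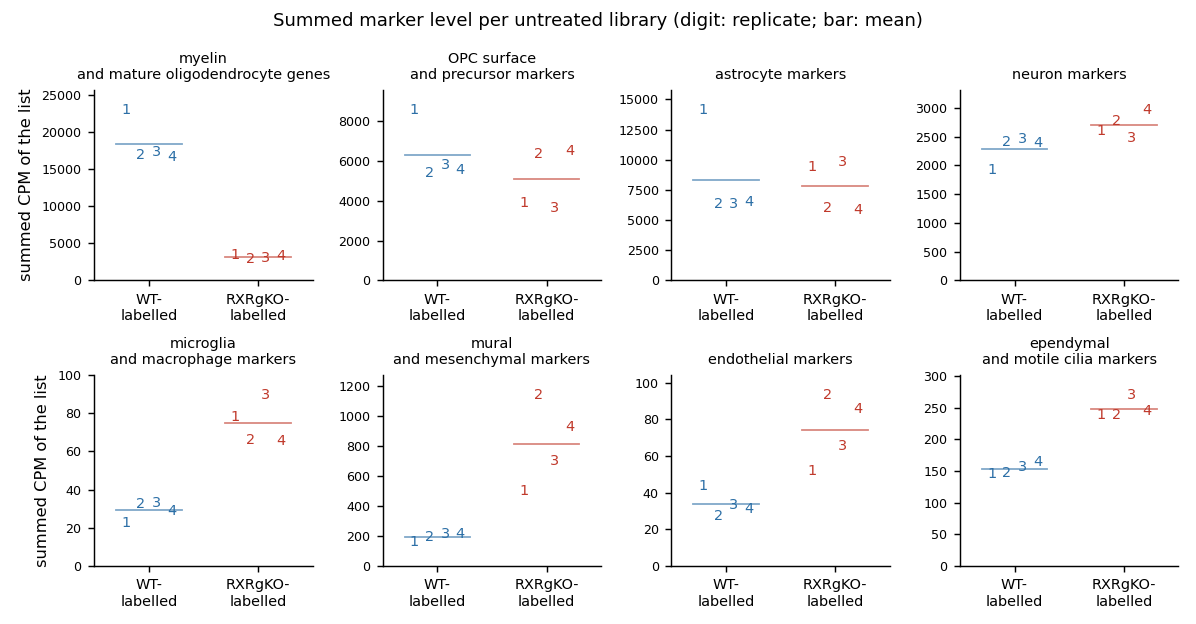
Summed CPM of 8 marker lists in each untreated library, with replicate numbers as points and bars at the group means; each y axis starts at 0. The myelin sum is lower in all 4 RXRgKO-labelled libraries, the microglia, mural, endothelial and ependymal sums are higher in all 4, and the OPC and astrocyte sums overlap. The neuron sum is also higher in all 4, but narrowly, with a lowest value of 2474 CPM against at most 2461 CPM under the WT label.

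Further genes named here were also among the 12 largest falls. Ddc, which makes dopamine and serotonin from their precursors, went from 92.0 ± 24.8 to 3.55 ± 0.565 CPM (log2 fold change -4.69, SE 0.40, adjusted p = 9.4e-07). S1pr5, the sphingosine-1-phosphate receptor of oligodendrocytes, went from 11.9 ± 3.16 to 0.548 ± 0.293 CPM (log2 fold change -4.46, SE 0.37, adjusted p = 6.8e-07). Tmem125 (-4.87) and Btbd16 (-4.24) were lower without overlap. Ranked by CPM, which favours long genes, the 10 protein-coding calls at the top included Mbp, Marcks, Cnp, Map1b, Vim, Nfasc, Map4k4, Sirt2 and Glul, of which Vim alone was higher. Vim, an intermediate filament of progenitors and glia, was at 1355, 1215, 1634 and 1083 CPM under the RXRgKO label and 854, 793, 813 and 849 CPM under the WT label, without overlap (log2 fold change 0.68, SE 0.16, adjusted p = 0.00758). Map1b, a microtubule-binding protein, and Sirt2, a deacetylase of the myelin sheath, had log2 fold changes of -1.12 and -1.21. For Marcks (-0.63) and Map4k4 (-0.90) the call held in 2 of 8 omissions.

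Genes that mark regions of the developing brain were more often higher than lower. Of 41 regional patterning homeobox genes, 32 were tested, with 8 higher, 2 lower and a median of 0.56. Their log2 fold changes ran from -1.14 to 1.94. Leaving out 1 library gave 8 to 9 higher, but with counts summed per set only 1 was higher and 0 lower. Lhx6, of interneurons from the medial ganglionic eminence, was at 12.6, 11.1, 12.9 and 12.1 CPM under the RXRgKO label and 1.87, 3.38, 4.09 and 3.40 CPM under the WT label (log2 fold change 1.94, SE 0.22, adjusted p = 1.7e-05). Nkx2-1, the ventral forebrain factor upstream of it, was at 7.45 to 11.6 against 2.24 to 3.57 CPM (log2 fold change 1.70, SE 0.26, adjusted p = 3.3e-04). Otx2, of forebrain and midbrain, was at 20.1 to 28.3 against 6.34 to 8.49 CPM (log2 fold change 1.58, SE 0.18, adjusted p = 1.7e-05), and Irx2 (1.51), Irx5 (1.75) and Zic1 (0.57) were higher as well. None of these 6 overlapped between labels. Neural stem and progenitor genes had 5 of 22 higher and 1 lower at a median of 0.04, among them the filament gene Nes (log2 fold change 0.99, SE 0.30, adjusted p = 0.0434), whose call held only without RXRgKO-labelled replicate 1 or 3.

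Genes of the Hedgehog pathway, through which ventral patterning is set, were examined after their values were seen. Gli1, the transcription factor whose own expression rises with signalling, was at 4.90, 9.05, 6.94 and 5.85 CPM under the RXRgKO label and 0.285, 0.591, 0.548 and 0.392 CPM under the WT label (log2 fold change 3.87, SE 0.24, adjusted p = 5.0e-08). Shh, the ligand, was at 3.46, 27.1, 4.60 and 19.6 CPM under the RXRgKO label and 0.772, 1.52, 1.94 and 2.44 CPM under the WT label (log2 fold change 3.04, SE 0.67, adjusted p = 0.00558), high in RXRgKO-labelled replicates 2 and 4. Hhip, which binds the ligand and is itself a target, went the other way, at 3.73, 6.74, 4.34 and 6.33 CPM under the RXRgKO label and 32.0, 37.1, 41.6 and 37.8 CPM under the WT label (log2 fold change -2.81, SE 0.28, adjusted p = 4.7e-06). Smo, the signalling receptor, was higher by a small step (log2 fold change 0.46, adjusted p = 0.0326) in only 1 of 8 omissions. Ptch1, the main receptor and another target, was at 103 to 206 against 131 to 144 CPM and was not called (0.19), nor were Gli2 (-0.19) and Gli3 (0.27). Members known as targets of the pathway thus lay on both sides.

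Thyroid hormone genes were looked at because retinoid X receptors partner the thyroid hormone receptors. Of 11 receptors, deiodinases and transporters, 10 were tested, 1 higher and 3 lower. Crym, which binds T3 in the cytosol, was at 11.8, 33.4, 19.6 and 23 CPM in RXRgKO-labelled replicates 1 to 4 and 1.50, 1.82, 2.44 and 2.00 CPM in WT-labelled replicates 1 to 4. The groups did not overlap (log2 fold change 3.50, SE 0.32, adjusted p = 2.1e-06), and Crym also passed with summed counts. Both receptor genes, Thra (log2 fold change -0.72, SE 0.19, adjusted p = 0.0184) and Thrb (log2 fold change -0.65, SE 0.13, adjusted p = 0.00334), and Dio2, the deiodinase that makes T3 (log2 fold change -1.20, SE 0.21, adjusted p = 0.00102), were lower. Thra lost its call without WT-labelled replicate 1 and without RXRgKO-labelled replicate 1 or 3 (adjusted p up to 0.0926). Thrb was at 8.66 to 9.80 against 14.2 to 14.5 CPM, a small and even step. Of 18 tested T3 response genes of neural cells (19 on the list), 2 were higher and 4 lower at a median of 0.09. The lower ones were Mbp and the transcriptional regulators Hr (-1.46), Klf9 (-1.15) and Dbp (-0.78), and for Klf9 the call was lost without WT-labelled or RXRgKO-labelled replicate 1. The higher ones were the GTPase gene Gbp3 (1.09) and the retinaldehyde enzyme gene Aldh1a1 (2.10). The list thus gave no common direction.

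Retinoid genes, on the other side of the receptor pair, had 5 of 18 tested members higher (of 20), Rxrg among them, and 0 lower, at a median of 0.61. With counts summed per set 0 retinoid genes were called, and their summed level overlapped between labels (280 to 334 against 243 to 343 CPM). Aldh1a2, an enzyme that makes retinoic acid, was at 6.10, 3.16, 8.94 and 2.78 CPM under the RXRgKO label and 0.976, 0.338, 0.0842 and 0.174 CPM under the WT label (log2 fold change 3.70, SE 0.68, adjusted p = 0.00138), highest in RXRgKO-labelled replicates 1 and 3. Rdh10, which makes retinaldehyde (log2 fold change 0.66, SE 0.13, adjusted p = 0.00232), and the binding protein gene Crabp1 (log2 fold change 1.61, SE 0.21, adjusted p = 6.3e-05) were higher without overlap. Liver X receptors and their lipid export targets had 2 of 14 tested members higher, the phospholipid transfer protein gene Pltp (log2 fold change 2.28, SE 0.26, adjusted p = 2.0e-05) and the cholesterol transporter gene Abcg1 (log2 fold change 1.08, SE 0.24, adjusted p = 0.00522), and 0 lower. That share, 14.3%, is near the 11.3% of all genes called and is no result about the list. With counts summed per set 0 of its members were called. Fatty acid receptors (PPARs) and their targets had 1 of 18 lower, the peroxisomal enzyme gene Ehhadh (-1.29), and 0 higher. In the remaining nuclear receptors and coregulators, 2 of 20 tested were higher, among them the orphan receptor gene Nr2f2 (0.89), and 3 lower, among them the clock repressor gene Nr1d1 (-0.60) and Rorb (-0.47; 1 of 8 omissions). Without RXRgKO-labelled replicate 1, only 1 was lower.

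**Figure D4:**
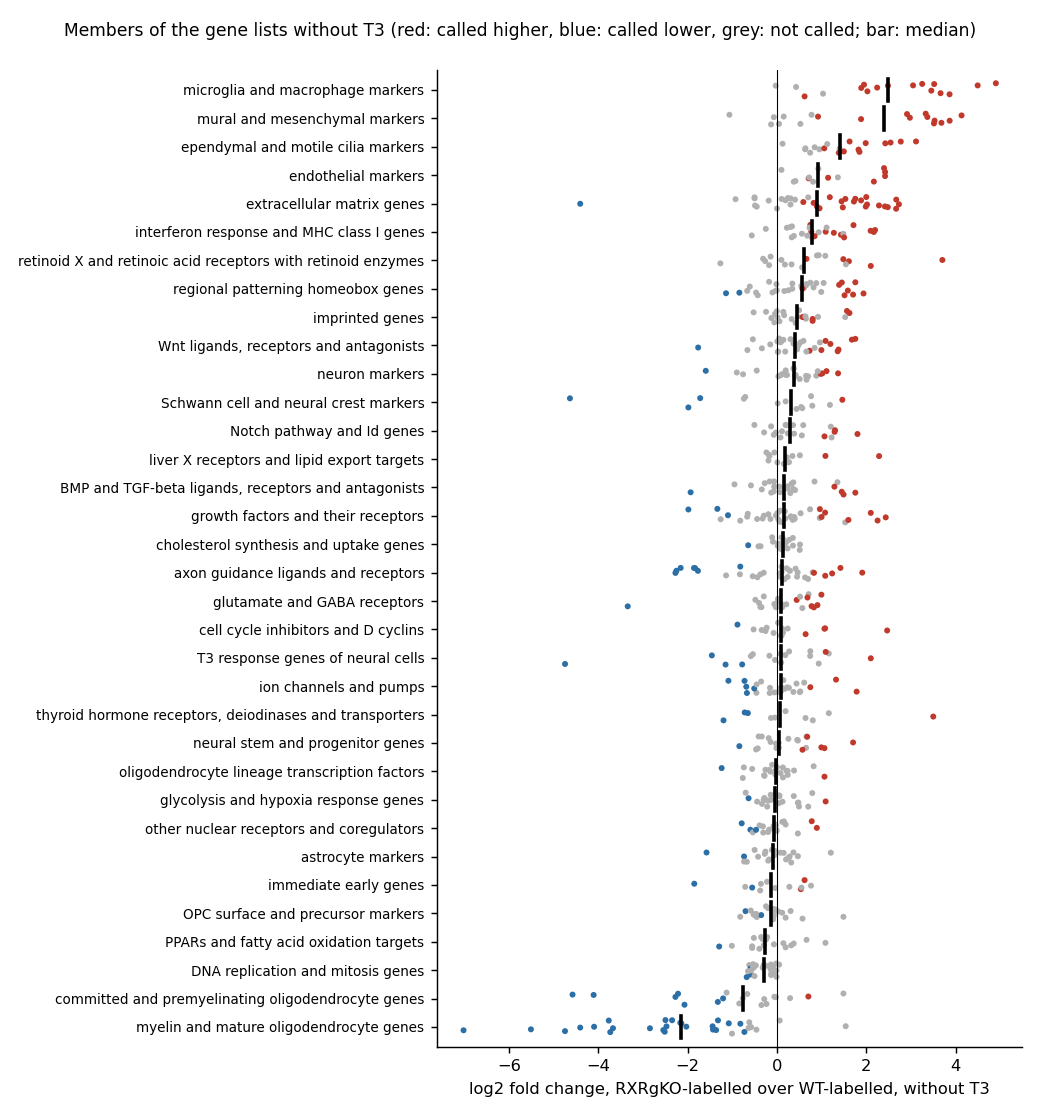
Log2 fold change (x axis) of every tested member of 34 gene lists, ordered by the list's median, which the black bar marks. Red members were called higher, blue lower and grey not called; the myelin list lies at the low end with a median of -2.14 and the microglia list at the high end with 2.48.

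Extracellular matrix genes had 20 of 35 members higher, 1 lower (Hapln2) and a median of 0.89. The largest rise of the list was that of Lamb1, a laminin chain of basement membranes, at 11.7, 28.6, 14.9 and 28.1 CPM under the RXRgKO label and 3.98, 3.21, 2.44 and 2.92 CPM under the WT label (log2 fold change 2.73, SE 0.30, adjusted p = 1.3e-05), high in replicates 2 and 4. Col4a2 (log2 fold change 2.42, SE 0.24, adjusted p = 5.0e-06) and Col18a1 (log2 fold change 2.67, SE 0.30, adjusted p = 1.7e-05) encode collagens of the same structure and were higher too. Sparc, a matrix glycoprotein of glia and other cells, was at 437 to 579 against 198 to 239.6 CPM (log2 fold change 1.18, SE 0.13, adjusted p = 1.4e-05). Without WT-labelled replicate 1 the list had 19 higher, against that library alone 5, and with counts summed per set 0. The summed level of the list, 3907 to 6244 against 4144 to 8364 CPM, overlapped between labels. The mural and endothelial sums above were also higher in each RXRgKO-labelled library, and their part in the matrix genes was not tested.

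Ligands and receptors moved in both directions. Growth factors and their receptors had 7 of 36 higher and 3 lower. Igfbp2, which binds insulin-like growth factors, was at 157, 264, 242 and 190.4 CPM under the RXRgKO label and 68.9, 75.1, 70.3 and 67.7 CPM under the WT label (log2 fold change 1.60, SE 0.15, adjusted p = 3.7e-06), and Igf1 (log2 fold change 2.25, SE 0.27, adjusted p = 2.9e-05) and Pdgfb (log2 fold change 2.43, SE 0.29, adjusted p = 2.7e-05) were higher without overlap. Fgfr2, a fibroblast growth factor receptor of oligodendrocytes, was at 82.3 to 92.2 against 171 to 192 CPM (log2 fold change -1.10, SE 0.14, adjusted p = 5.4e-05). Of 31 tested Wnt genes, 8 were higher and 1 lower at a median of 0.40, with the agonist gene Rspo3 (1.68), the receptor gene Fzd10 (1.75), the ligand gene Wnt5a (0.99) and the inhibitor gene Apcdd1 (1.20) higher and the ligand gene Wnt3 lower (-1.76). Axin2, a common Wnt target, was among those not called. The Wnt median was 0.62 without WT-labelled replicate 1 and -0.10 against that library alone. With counts summed per set 0 Wnt genes were called, and their summed level overlapped between labels (575 to 786 against 566 to 672 CPM). BMP and TGF-beta genes had 4 of 27 higher, among them the receptor gene Tgfbr2 (1.49) and the ligand genes Tgfb3 (1.28) and Bmp6 (1.45). The 1 lower was Smad7, the pathway's own inhibitor, at 10.2 to 13.9 against 43.1 to 47.7 CPM (log2 fold change -1.93, SE 0.24, adjusted p = 3.4e-05). These BMP and TGF-beta counts were 6 higher and 3 lower without WT-labelled replicate 1.

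Notch pathway and Id genes had 4 of 20 higher and 0 lower, and 7 higher without WT-labelled replicate 1. With counts summed per set 0 were called. The median was 0.30, and 0.11 against WT-labelled replicate 1 alone. Lfng, which modifies Notch, was at 53.9 to 66.8 against 24.0 to 25.7 CPM (log2 fold change 1.30, SE 0.17, adjusted p = 6.8e-05), and the target genes Hes1 and Heyl (1.80) were higher too. Axon guidance genes had 5 of 33 higher and 7 lower. Sema6a, a semaphorin of oligodendrocytes, was at 85.5, 129.8, 87.3 and 146 CPM under the RXRgKO label and 542, 334, 372 and 348 CPM under the WT label (log2 fold change -1.83, SE 0.31, adjusted p = 6.5e-04). The receptor genes Ephb1 (-2.27) and Unc5b (-2.25) and the ligand gene Sema3e (-2.16) were lower, while the ephrin gene Efna5 was higher (1.42), each without overlap.

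Interferon response and MHC class I genes had 11 of 25 tested members higher (of 26), 0 lower and a median of 0.78. Usp18, which restrains interferon signalling, was at 3.22 to 6.09 against 0.732 to 1.22 CPM (log2 fold change 2.19, SE 0.38, adjusted p = 8.5e-04), and Bst2, the antiviral tetherin gene (2.17), and the transcription factor gene Irf1 (0.77) were higher. The count was 12 with RXRgKO-labelled replicates 1 and 3 and 2 with replicates 2 and 4, and it was 6, 7 and 6 without WT-labelled replicate 3, WT-labelled replicate 4 and RXRgKO-labelled replicate 3. Against WT-labelled replicate 1 alone 0 were higher and 1 lower, and with counts summed per set 0 were higher. The summed level of the list was 251 to 379.5 CPM under the RXRgKO label and 192 to 274.5 CPM under the WT label, overlapping because WT-labelled replicate 1 held the 274.5. The microglia and macrophage sum was also higher under the RXRgKO label, but among the WT-labelled libraries it was lowest in replicate 1 (22.5 CPM). Its part in the interferon genes was not tested.

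DNA replication and mitosis genes had 3 of 30 lower, Bub1b (-0.61), Cenpe (-0.68) and Cenpf (-0.59), all of the mitotic checkpoint and kinetochore, 0 higher and a median of -0.29. Without WT-labelled replicate 1 or RXRgKO-labelled replicate 1 only 1 was called. Mki67, the proliferation marker, was at 101 to 128 against 149 to 227 CPM, without overlap but not called (log2 fold change -0.58, adjusted p = 0.0988). Cell cycle inhibitors and D cyclins had 4 of 16 higher and 1 lower. Cdkn2a, which encodes a pair of cell cycle brakes, was at 15.5, 6.16, 12.1 and 5.52 CPM under the RXRgKO label and 1.54, 1.77, 1.35 and 2.44 CPM under the WT label (log2 fold change 2.46, SE 0.47, adjusted p = 0.00181), highest in RXRgKO-labelled replicates 1 and 3. Cdkn1a, the p21 gene (1.06; 3 of 8 omissions), and the cyclin gene Ccnd2 (0.64; 0 of 8) were higher, and the stress gene Gadd45a was lower (-0.88). Without WT-labelled replicate 1 the higher members came to 2, and to 1 without WT-labelled replicate 2, 3 or 4 or RXRgKO-labelled replicate 1 or 3.

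Ion channels and pumps had 3 of 29 higher, with the potassium channel gene Kcnj16 at 1.32, and 5 lower, with Kcna2 at -1.09. The lower ones came to 2 without WT-labelled replicate 4 and to 3 without WT-labelled replicate 3 or any 1 RXRgKO-labelled library. Glutamate and GABA receptors had 6 of 24 higher and 1 lower, Grm7, a presynaptic glutamate receptor, at 4.84 to 6.05 against 50.6 to 64.0 CPM (log2 fold change -3.34, SE 0.38, adjusted p = 2.1e-05). Cholesterol synthesis and uptake genes, which supply the lipid of myelin, had 1 of 25 lower, Ebp (-0.64), and 0 higher. Glycolysis and hypoxia genes had 1 of 23 higher, Adm (1.09), and 1 lower, Pfkp (-0.64; 2 of 8 omissions). Immediate early genes had 2 of 12 tested members higher and 2 lower, Arc (-1.85) and Jun (-0.56; 7 of 8 omissions). Shares under the 11.3% of all genes called are no result about a list. This holds for the cholesterol, glycolysis, mitosis, PPAR, astrocyte, OPC and lineage factor lists.

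Imprinted genes had 5 of 24 tested members higher (of 25), 0 lower and a median of 0.44, with 2 higher when RXRgKO-labelled replicate 3 was left out. Mest, a paternally expressed gene of embryonic tissue, was at 97.0, 308, 137 and 223 CPM under the RXRgKO label and 64.8, 61.5, 68.0 and 63.9 CPM under the WT label (log2 fold change 1.57, SE 0.33, adjusted p = 0.00401), and Peg10, a retrotransposon-derived gene, at 56.1, 148, 64.5 and 137 CPM under the RXRgKO label and 28.1, 33.7, 34.2 and 36.1 CPM under the WT label (log2 fold change 1.62, SE 0.37, adjusted p = 0.00753). Both were highest in RXRgKO-labelled replicates 2 and 4 and even across the WT-labelled libraries. The maternal RNA gene Meg3 was higher by less (0.57; 5 of 8 omissions).

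By chromosome, the share of tested genes called lay between 9.27% and 13.2% for the autosomes and X. Chromosome 1, which carries Rxrg, had the 13.2%. Within 5 megabases on each side of Rxrg, 16 of 132 tested genes were higher and 4 lower (15.2%), and within 1 megabase 2 of 12 were higher, among them the homeobox gene Lmx1a (0.94), named after its value was seen. Ddr2, a collagen receptor gene inside the wider window (chromosome 1, 169972307 to 170110762), was at 16.1, 22.7, 18.4 and 19.1 CPM under the RXRgKO label and 1.99, 1.69, 2.32 and 2.57 CPM under the WT label (log2 fold change 3.15, SE 0.17, adjusted p = 2.5e-08) and was likewise picked out after the fact. The sources used here do not give the strain from which these flanks come.

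The T3-treated libraries hold the same labels and share no library with the comparison above, but the 1 fit took its spread from both. Whether both treatments share source cultures was not tested. WT-labelled replicate 1 again stood apart, with a chi-square per gene of 7.66 to 7.74 against 1.52 to 2.12 among the others. RXRgKO-labelled replicates 1 and 2 (1.50) and 3 and 4 (1.79) formed pairs, with 8.59 to 9.62 between the pairs. With T3, 2943 genes (14.9%) were called between labels. Of the 2240 genes called without T3, 1616 (72.1%) were called in the same direction with T3 and 1 in the other; these are 54.9% of the genes called with T3. In the myelin list 23 members were lower and 0 higher with T3, at a median of -1.49. Microglia and macrophage markers had 14 higher and 0 lower with T3 at a median of 2.86, mural and mesenchymal markers 11 and 0 at 1.98, and extracellular matrix genes 16 and 1 at 0.73. Mitosis genes had 13 of 30 lower with T3 at a median of -0.64, and neuron markers 12 of 24 higher at 0.85. Whether these list counts differ between treatments was not tested. Gene by gene, the difference between labels differed between treatments for 1 matrix member and 0 members of the other lists in this paragraph.

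The difference between labels itself differed between treatments for 13 genes (0.0658%), with 1017 at an unadjusted p under 0.05. Of these 13, 8 were called without T3, and 6 of them are named here after their values were seen. Thbs2, a matrix protein that limits vessel growth, was at 9.82 ± 1.21 against 3.53 ± 0.373 CPM without T3 and 16.7 ± 2.91 against 18.1 ± 1.58 CPM with T3. Its log2 fold change was 1.47 without and -0.12 with T3 (difference -1.59, SE 0.20, adjusted p = 0.00601). Pcolce, an enhancer of collagen processing, had 2.65 and 0.61, the lysosomal protease gene Ctsc 1.08 and -0.16, and the scavenger receptor gene Colec12 3.27 and 1.73. For all 4 the log2 fold change was higher without T3. Fam135b, in contrast, was further down without T3, at -2.81 against -0.95 (difference 1.86, SE 0.24, adjusted p = 0.00601). The phosphate transporter gene Slc20a2 (-0.42 and -1.49) was further down with T3, and its call without T3 held in 1 of 8 omissions.

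**Figure D5:**
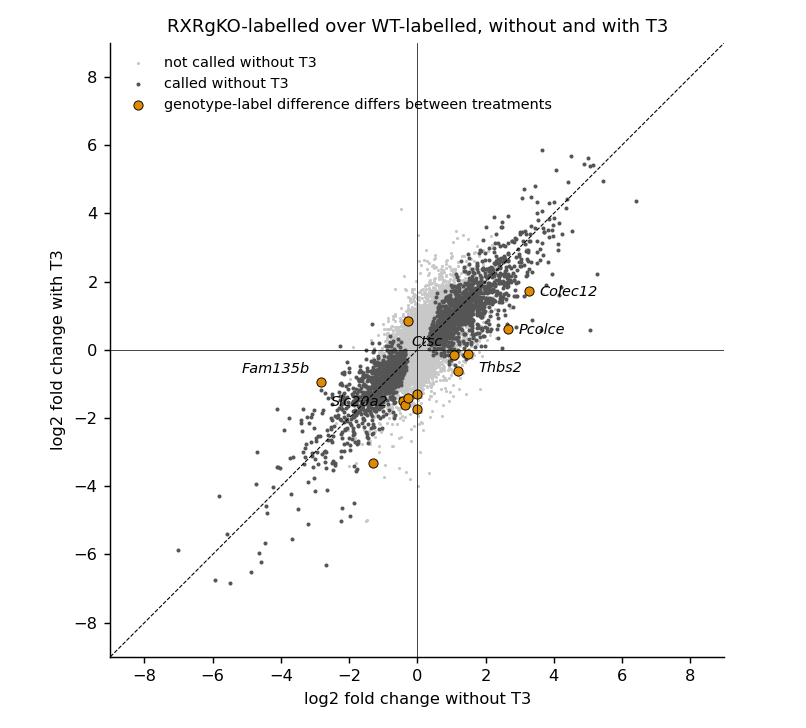
Log2 fold change of RXRgKO-labelled over WT-labelled libraries without T3 (x axis) and with T3 (y axis) for each tested gene, from separate libraries; dark points were called without T3 and the dashed line marks equal values. The 13 orange genes are those whose difference between labels differed between treatments, and Thbs2, Pcolce, Ctsc and Colec12 lie to the right of the line.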

How the data were processed

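Per the labels' protocols, poly-A RNA of OPC cultures was made into stranded libraries with dUTP. Per the submitters' processing notes, the build was mm10 and the tools were HTSeq 0.6.1p1, STAR 2.5.3a and bcl2fastq 2.17.1.14. Neither the annotation release nor the strand setting of the counting is stated, so genes that overlap on opposite strands may share reads. The authors deposited raw counts per gene and library, 55335 genes each, of which 55154 were matched to GENCODE M21 (GRCm38) for names and positions. The 5 HTSeq summary rows were left out, and the gene rows held 22.4% to 41.0% of each untreated library. All 16 libraries held 18262279 to 42588442 gene counts. Precision at this depth covers counting error and the spread between libraries only.

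Genes were filtered by edgeR's filterByExpr and scaled by TMM, and RXRgKO ctrl was set against WT ctrl in edgeR 4.0.16 (robust quasi-likelihood, all 16 libraries in 1 fit, R 4.3.3), with Benjamini-Hochberg adjustment over all 19764 genes tested and a threshold of 0.05. The standard error of a log2 fold change is its size divided by the square root of F. Not called means only that the test was not passed. DESeq2 1.42.0, limma 3.58.1, other filters, leaving out each library and library sets were alternatives. The fit was tested on simulated data first. By rule 199 genes were named: Rxrg; the 12 largest rises and falls among called protein-coding genes whose labels do not overlap and whose higher mean is at least 2 CPM; the 10 called protein-coding genes of highest CPM; the 5 members per list with the lowest adjusted p, plus the 2 of highest CPM for other cell types; and the sex-linked genes. The text draws on 176 genes, as some are not reported here, and 38 of them were chosen after their values were seen. The comparison, its 35 gene lists and the markers were chosen with earlier results of these data known. The T3-treated libraries share no sample with the untreated ones. Promoters come from RefSeq (GRCm38.p6).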

Additional observations from a re-analysis of the deposited data

Results flagged for a closer look

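WT-labelled replicate 1 lay far from the other 3 WT-labelled libraries in many of the genes named above, by a gap that made up most of the range of its group by Dixon's limit for 4 values. It was the highest for 37 genes and the lowest for 10. Chance puts about 1 in 20 groups past this limit, and these genes were not chosen independently of each other. The genes in which it was highest, in CPM, include Adamts4 (352), Adm (1.99), Aqp4 (972), Cdkn1a (10.7), Cldn11 (669.8), Cnksr3 (241), Cnp (3149), Col18a1 (8.29), Cspg4 (123), Ddc (129), Ddx3y (73.3), Fam135b (125) and Gadd45a (30.3). High in the same library were also Gfap (4728), Glul (1004), Hr (61.5), Kcna2 (256), Klf9 (50.4), Lims2 (59.4), Map1b (2418), Map4k4 (1590.0), Mbp (6608), Mitf (58.3), Mog (8.82), Myrf (469.5) and Olig1 (643). So were Olig2 (492), Rras2 (86.9), Sirt2 (1882), Smo (74.7), Sox10 (824), Tcf7l2 (119), Thra (641), Tmem119 (0.325), Tmem163 (176), Ugt8a (981) and Uty (35.3). Genes lowest there, in CPM, were Btbd16 (2.40), Gad1 (9.07), Gad2 (4.67), Lmx1a (1.14), Meg3 (44.8), Mobp (155), Nkx6-2 (13.0), Otx2 (6.34), Sp9 (4.23) and Tmem125 (8.50). The library also had the highest gene count of its group, 26290500, the highest share of reads in genes, 41.0%, the lowest share of reads placed at several sites, 41.2%, and the highest mitochondrial share of gene counts, 1.87%. The part of these library measures in the gene levels was not tested.

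Single libraries stood apart in a few other genes. WT-labelled replicate 3 was the highest of its group for Fcrls (0.337 CPM), and WT-labelled replicate 4 the lowest for Lyz2 (0.174 CPM). RXRgKO-labelled replicate 1 was the lowest of its group for Meg3 (102 CPM), and RXRgKO-labelled replicate 3 was the lowest for Lims2 (54.0 CPM) and the highest for Tmem125 (1.23 CPM).

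For 6 named genes the difference between labels itself differed between treatments in the edgeR fit, given here as the log2 fold change with T3 minus that without. It was -2.04 (adjusted p = 0.0182) for Pcolce, -1.59 (adjusted p = 0.00601) for Thbs2, -1.54 (adjusted p = 0.0388) for Colec12 and -1.24 (adjusted p = 0.0182) for Ctsc. The values were -1.08 (adjusted p = 0.0327) for Slc20a2 and 1.86 (adjusted p = 0.00601) for Fam135b. These genes were named after their values were seen.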

How the results depend on the processing

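The 2240 calls moved by less than 1.5 times, in total and in each direction, under DESeq2 (2800), limma voom (2139), DESeq2 size factors in edgeR (2292), no low-count filter (1807), a filter of 1 CPM in 4 libraries (2261), the 8 untreated libraries alone (2271), non-robust dispersions (2270) and RXRgKO-labelled replicates 1 and 3 alone (1928). Leaving out 1 library gave 1712 to 2206 calls, 929 to 1240 higher and 746 to 966 lower, and 1160 to 1373 of at least 2-fold. With counts summed per library set there were 141 calls, 70 higher and 71 lower, with 141 of at least 2-fold, where each label had only 2 samples. RXRgKO-labelled replicates 2 and 4 alone gave 1373 calls, 800 higher and 573 lower. WT-labelled replicate 1 as the only untreated WT library, an alternative chosen after seeing the data, gave 1103 calls, 404 higher and 699 lower, with the lone library assumed to vary like the others; the cause was not tested. Same-numbered untreated libraries had residual correlations of -0.18, -0.19, 0.05 and -0.12, within the -0.25 to 0.24 of libraries with unlike numbers. The signs followed the library sets, so these values cannot decide whether the numbers pair the samples. A fit with the replicate block gave 1672 calls, 904 higher and 768 lower.

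Of 153 called genes named here, 130 were called in every omission of 1 library and 23 lost the call in at least 1, while 3 genes gained one. DESeq2 called all 153, the replicate block 136, and summed sets 40. Lims2 alone reversed, at -0.087 against WT-labelled replicate 1, where it was not called; the cause was not tested. The 33 counts followed were the totals over all genes and the list counts of at least 3 genes. Of these, 8 moved by over 1.5 times in an omission, all of them list counts, and are given in the report. Smaller counts were not followed. Depth limits genes near 0, such as Cd209f, whose fold rests on 4 reads under the WT label.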
